A study of Cucumis sativus with 4 samples.

Results

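Cucurbitacin C is the bitter triterpenoid of cucumber (Cucumis sativus) leaves, and the genes described here are those of its pathway: the oxidosqualene cyclase Bi (Csa6G088690), the acyltransferase Csa6G088700 and 8 cytochrome P450 genes known to be co-expressed with Bi in cucumber leaf. The 10 genes were taken by their locus IDs from a table of 17585 genes, of which 8 had a row. Bi itself and the P450 gene Csa6G088180 had no row and were not analysed here. RNA was sequenced from the first true leaf of plants 20 days old in 2 groups of 2 libraries each. The RNAi group carried an RNA interference construct made from a piece of the coding sequence of CsTCP18a, a TCP family transcription factor related to BRANCHED1. The control group, which the labels call wild type (WT), carried the empty PFGC-1008 vector. Both groups were made with Agrobacterium strain GV3101 in the cucumber inbred line R1461 and grew in the same light and temperature regime. The labels give neither the number of transgenic lines nor whether the replicates of a group are different plants, so the p-values rest on a spread between libraries that may be technical.

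Cucurbitacins are oxidised triterpenes that make cucurbit leaves and fruits bitter and deter many herbivores. Bi folds oxidosqualene into cucurbitadienol, the carbon skeleton of the family. P450 enzymes then oxidise that skeleton, and an acyltransferase adds an acetyl group to give cucurbitacin C. Several of the genes lie in a cluster on chromosome 6, and in cucumber leaf the bHLH transcription factor Bl is known to activate Bi.

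The table used here pairs no names with its IDs, and 0 of the 17585 IDs matched the cucumber RefSeq gene table. The level of CsTCP18a, markers of leaf tissue, the regulators of the pathway and the enzymes that supply oxidosqualene were therefore not analysed here. The gene-assigned reads numbered between 24372389 and 27507543 in the RNAi libraries and between 18930131 and 27664402 in the WT libraries. Values are normalised CPM, read counts scaled to a common library size after TMM adjustment, and 1 read was worth 0.0319 to 0.0573 normalised CPM. A count of 0 therefore allowed up to 0.0957 to 0.172 normalised CPM, taking 3 reads as the limit, for counting error only.

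All 8 pathway genes with a row rose in RNAi leaves, between 10.8-fold and 85.0-fold in reads summed over each group and scaled to the TMM-adjusted library sizes. Set against WT replicate 1 alone these read ratios lay between 8.23 and 52.9. Set against WT replicate 2 alone they lay between 18.4 and 124.3 for 7 genes, and Csa6G088160, with 0 reads there, was at least 465.9-fold higher, taking 3 reads as the limit. Their levels lay between 67.3 and 370.1 normalised CPM in the RNAi libraries and between 0 and 22.3 in the WT libraries. In limma's test on log2(normalised CPM + 1) across 17491 genes, 8 of 8 were higher in RNAi and 0 were lower at a Benjamini-Hochberg adjusted p under 0.05. Of all tested genes, 31.0% were called higher and 29.5% lower. On whole reads recovered from the table, 8 of 8 were also higher and 0 lower with edgeR, which called 29.6% of all genes higher and 29.2% lower, and with DESeq2, which called 29.3% higher and 29.9% lower. The median log2 fold change was 5.08 over the 8 genes and 0.03 over all tested genes. A log2 fold change of at least 4 was reached by 7 of the 8, and by 2.10% of all tested genes. The genes were chosen with earlier results of these data known, so these contrasts and the places given below are a description. With bulk leaves, more cells of a type that expresses these genes and more of their RNA per cell cannot be told apart.

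Of the 8 genes, 6 would have passed the filter (1 normalised CPM or more in 2 or more libraries) on the WT libraries alone. The other 2, Csa6G088700 and Csa6G088160, passed only with the RNAi libraries, where they were high. The counts and the median above are therefore a description of the genes in the table and not of all 10 listed. Each gene in the table reached at least 1.004 plain CPM (without the TMM scaling) in at least 2 libraries. Whether such a limit left out Bi and Csa6G088180 is not stated in the labels. No ID with a number between Csa6G088170 and Csa6G088700 had a row. Row IDs skip similar stretches of numbers elsewhere too, so how many genes this gap holds is not known.

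**Figure D1:**
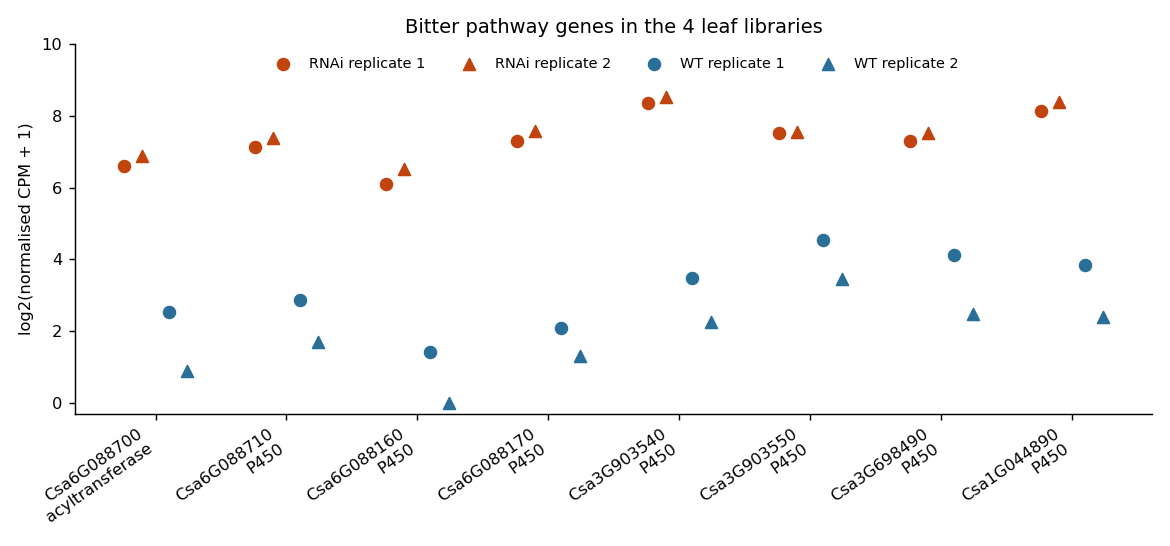
Level of each of the 8 pathway genes in each library, as log2(normalised CPM + 1); red points are RNAi libraries, blue points are WT libraries, circles are replicate 1 and triangles replicate 2. For each of the 8 genes both RNAi libraries lie above both WT libraries, and WT replicate 1 lies above WT replicate 2.

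The acyltransferase Csa6G088700, which acts at the end of the pathway, had 95.3 and 117.0 normalised CPM in RNAi replicates 1 and 2, against 4.81 and 0.859 in WT replicates 1 and 2. Both RNAi libraries were thus far above both WT libraries, and the WT libraries themselves differed 5.60-fold. The group means were 106 ± 15.4 in RNAi and 2.83 ± 2.79 in WT (SD, n = 2 each). The log2 fold change was 5.02 (SE 0.56, 95% confidence interval 3.57 to 6.47, adjusted p = 0.00180 in limma's test). Over the 14 alternatives its adjusted p ranged from 2.29e-14 (DESeq2) to 0.0512 (limma without RNAi replicate 2), and only the last missed the threshold. Summed over each group, 6340 RNAi and 125 WT reads gave, after scaling to the library sizes, a ratio of 34.5 (95% counting interval 28.9 to 41.5). This ratio was 22.2 against WT replicate 1 alone and 124.3 against WT replicate 2 alone, where the gene had 15 reads.

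The 3 P450 genes of the Csa6 prefix with a row rose between 33.5-fold and 85.0-fold in summed reads. Csa6G088160 had 67.3 and 91.4 normalised CPM in the RNAi libraries, against 1.66 and 0 in WT replicates 1 and 2. All of its 38 WT reads came from WT replicate 1, so its WT level rests on that library. Csa6G088170 had 157 and 188 normalised CPM in the RNAi libraries, against 3.28 and 1.49 in the WT libraries. Csa6G088710, whose ID follows that of the acyltransferase, had 138 and 164 normalised CPM in the RNAi libraries, against 6.29 and 2.23 in the WT libraries. For none of the 3 did the groups overlap, and both RNAi libraries lay above both WT libraries for 42.8% of all tested genes too. The lowest RNAi value exceeded the highest WT value 40.5-fold, 47.8-fold and 21.9-fold in the order given.

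On the log2(normalised CPM + 1) scale Csa6G088170 had the largest change of the 8 genes, 5.73 (SE 0.29, adjusted p = 0.000256 in limma's test). Csa6G088160 changed by 5.61 (SE 0.50, adjusted p = 0.000966) and Csa6G088710 by 4.96 (SE 0.41, adjusted p = 0.000767), both in limma's test. This scale understates the change of a gene that is close to 0 in one group. From summed reads the ratio of RNAi to WT was 85.0 for Csa6G088160 (95% counting interval 61.8 to 120.2), 69.2 for Csa6G088170 (56.9 to 85.0) and 33.5 for Csa6G088710 (28.9 to 39.0).

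The 4 P450 genes outside the Csa6 prefix also rose in RNAi leaves, between 10.8-fold and 47.8-fold in summed reads. Csa3G903540 had 329.5 and 370.1 normalised CPM in the RNAi libraries, against 10.1 and 3.78 in the WT libraries. Csa1G044890 had 279.6 and 332.0 in the RNAi libraries, against 13.4 and 4.24 in the WT libraries. The lower RNAi library exceeded the higher WT library 32.8-fold for Csa3G903540 and 20.8-fold for Csa1G044890. Csa3G903550, which follows Csa3G903540 in ID number, had 182 and 186 normalised CPM in the RNAi libraries, against 22.3 and 10.02 in the WT libraries. Csa3G698490 had 155 and 183 in the RNAi libraries, against 16.4 and 4.52 in the WT libraries. For the last 2 genes the lower RNAi library exceeded the higher WT library by less, 8.15-fold and 9.45-fold.

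The log2 fold changes were 5.59 for Csa3G903540 (SE 0.41, adjusted p = 0.000573 in limma's test) and 5.14 for Csa1G044890 (SE 0.49, adjusted p = 0.00115 in limma's test). Csa3G903550 had the smallest change of the 8, 3.53 (SE 0.36, adjusted p = 0.00146 in limma's test). Csa3G698490 changed by 4.11 (SE 0.55, adjusted p = 0.00317 in limma's test), and its call was lost without RNAi replicate 1 (adjusted p = 0.0630) or without RNAi replicate 2 (adjusted p = 0.0664), the highest of its 14 alternatives, of which the lowest was 4.24e-12 with DESeq2. In summed reads the ratios were 47.8 (95% counting interval 42.6 to 53.8) for Csa3G903540 and 32.5 (29.4 to 36.1) for Csa1G044890. They were 15.1 (13.7 to 16.6) for Csa3G698490 and 10.8 (10.01 to 11.7) for Csa3G903550.

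**Figure D2:**
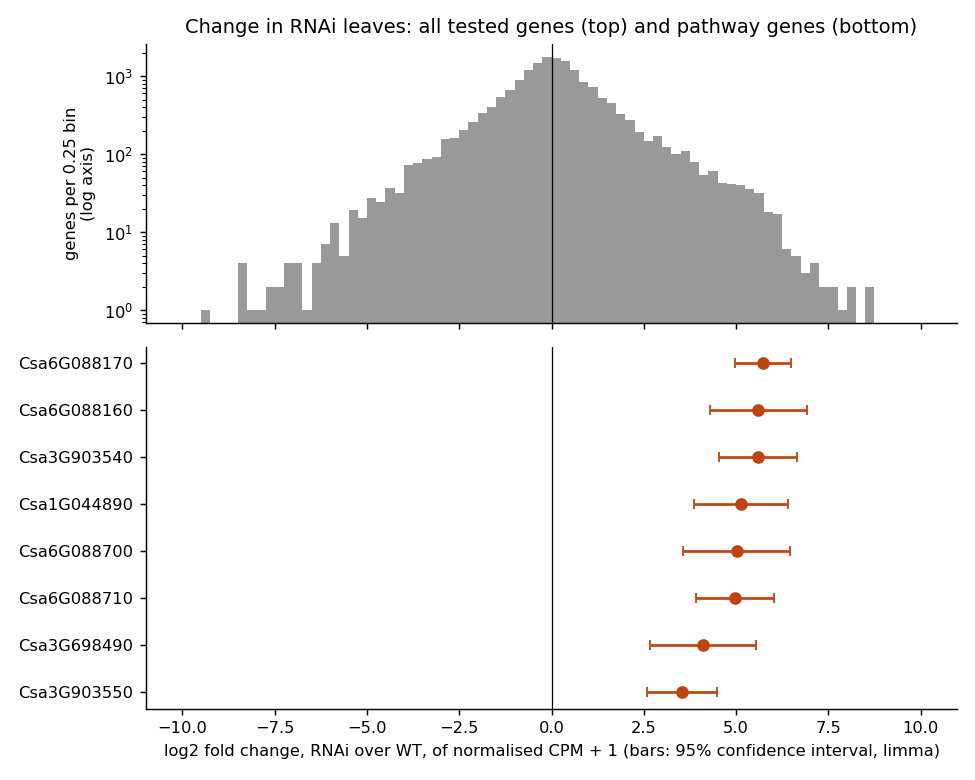
Top, log2 fold change (RNAi over WT) of all 17491 tested genes, as genes per bin on a log axis; bottom, the 8 pathway genes with their 95% confidence intervals from limma. The pathway genes lie between 3.53 and 5.73, in the upper tail of all tested genes, and each interval lies above 0.

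Among all 17491 tested genes, ordered from the largest increase down, the pathway genes held places between 65 (Csa6G088170) and 547 (Csa3G903550), and 6 of the 8 stood among the first 200. Both RNAi libraries lay above both WT libraries for 8 of 8 pathway genes and for 42.8% of all tested genes. The order of the read ratios ran from Csa6G088160 through Csa6G088170, Csa3G903540, Csa6G088700, Csa6G088710, Csa1G044890 and Csa3G698490 to Csa3G903550. The counting intervals of Csa6G088160 and Csa6G088170 overlapped, and so did those of Csa6G088700, Csa6G088710 and Csa1G044890, so these neighbours in the order were not told apart. These intervals hold only counting error, and the differences between the WT libraries, given below, were larger. The order itself depended on the WT library. Against WT replicate 1 alone the ratios were 22.2 for Csa6G088700, 34.9 for Csa3G903540 and 52.9 for Csa6G088170. Against WT replicate 2 alone they were 124.3, 92.9 and 116.4. Csa3G698490 and Csa3G903550 held the last places against either WT library.

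Added together, the 8 genes had 1404 and 1631 normalised CPM in RNAi replicates 1 and 2, against 78.2 and 27.1 in WT replicates 1 and 2. They took 0.161% and 0.186% of the gene-assigned reads in the RNAi libraries, against 0.00647% and 0.00250% in the WT libraries. The ratio of the mean sums, RNAi over WT, was 28.8. It was 55.9 without WT replicate 1 and 19.4 without WT replicate 2, so its size depends on which WT library is used. The exact permutation test (two-sided) gave p = 0.333 for the summed level, which is the smallest value that 2 libraries against 2 allow.

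The WT libraries differed from each other in the same direction for every one of the 8 genes. WT replicate 1 was above WT replicate 2 for 8 of 8, and 7 of the 8 differed at least 2-fold in normalised CPM + 1. Across all tested genes, 49.6% were higher in WT replicate 1, and 3.70% were at least 2-fold higher in normalised CPM + 1. Among the 6662 genes whose mean WT level lay within the range of the pathway genes, the share at least 2-fold higher was 4.07%. Among the 367 genes with a log2 fold change of at least 4 it was 7.36%. The 6662 include all 8 pathway genes and the 367 include 7 of them. The 367 also hold genes under 1 normalised CPM in both WT libraries, which cannot differ 2-fold in normalised CPM + 1. The median difference (WT replicate 1 minus WT replicate 2) was 1.31 log2 units over the 8 genes and 0 over all tested genes. Csa3G698490 had the widest difference at 1.65, close to that of the acyltransferase at 1.64, and Csa6G088170 the narrowest at 0.78. Each comparison of single libraries has no replicate check.

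The RNAi libraries differed less, and again in a common direction. RNAi replicate 2 was above RNAi replicate 1 for 8 of 8 pathway genes and for 51.8% of all tested genes. The ratio between them ranged from 1.02 for Csa3G903550 to 1.36 for Csa6G088160. The median difference (RNAi replicate 2 minus RNAi replicate 1) was 0.25 log2 units over the 8 genes and 0.01 over all tested genes. For each gene the RNAi libraries thus differed by at most 0.44 log2 units, whereas the WT libraries differed by 0.78 to 1.65. Across all tested genes the spread was also smaller in RNAi. The 5th to 95th percentile of the same differences ran from -0.32 to 0.36 in RNAi and from -0.75 to 0.88 in WT.

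**Figure D3:**
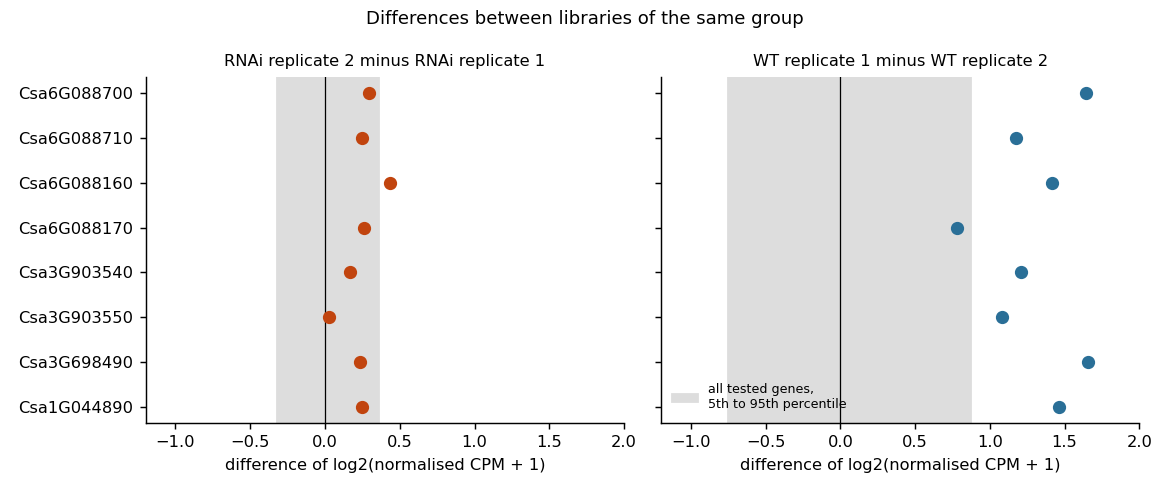
Difference of log2(normalised CPM + 1) between libraries of the same group for the 8 pathway genes: RNAi replicate 2 minus replicate 1 (left) and WT replicate 1 minus replicate 2 (right); grey bands span the 5th to 95th percentile of all tested genes. All 8 genes lie above 0 in both panels, and in the WT panel 7 of them lie past the upper edge of the band at 0.88, while Csa6G088170 lies at 0.78. In the RNAi panel only Csa6G088160, at 0.44, lies past the upper edge at 0.36.

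The size of each increase depended on the WT library used. Without WT replicate 1 the log2 fold changes of the 8 genes ranged from 4.07 to 6.31, and without WT replicate 2 from 2.99 to 5.34. Either omission moved 6 of the 8 folds of normalised CPM + 1 by more than 1.5 times, at most 1.77 times. All 8 log2 fold changes stayed positive, as they had to, since both RNAi libraries lay above both WT libraries for each gene. In these fits the lone WT library is assumed to vary like the RNAi libraries, whose spread was smaller. Without RNAi replicate 1 the log2 fold changes ranged from 3.54 to 5.86, and without RNAi replicate 2 from 3.51 to 5.59. There the lone RNAi library is assumed to vary like the WT libraries. The call of Csa3G698490 was lost in both cases, and that of the acyltransferase without RNAi replicate 2. The number of calls over all tested genes also moved with the library left out, as given below.

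Relative to the acyltransferase, Csa3G903550 and Csa3G698490 were lower in both RNAi libraries than in both WT libraries. The planned yardstick was Bi, which had no row, so the acyltransferase was used after the values were seen. The log2 ratio of Csa3G903550 to the acyltransferase (each as normalised CPM + 1) was 0.93 and 0.66 in the RNAi libraries, against 2.01 and 2.57 in the WT libraries. That of Csa3G698490 was 0.70 and 0.64 in the RNAi libraries, against 1.58 and 1.57 in the WT libraries. The differences between groups were -1.49 and -0.91 log2 units in the order given, with no overlap. They restate the smaller log2 fold changes of both P450 genes, 3.53 and 4.11, beside 5.02 for the acyltransferase, and are no separate result. The acyltransferase itself passed the filter only with the RNAi libraries. The share of all tested genes with such a shift was not counted.

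Without the added 1 these differences were -2.08 and -1.41, and the groups again did not overlap. The exact permutation test (two-sided) gave p = 0.333 for both, the smallest possible, and 0.389 after Benjamini-Hochberg adjustment over 7 ratios.

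For the other P450 genes the ratio to the acyltransferase depended on the added 1, since the acyltransferase was at 0.859 normalised CPM in WT replicate 2. With it, Csa6G088170, Csa3G903540 and Csa1G044890 had higher ratios in both RNAi libraries, by 0.71, 0.57 and 0.12 log2 units in the order given. Without it, the groups overlapped for all 3, with differences of 0.58, 0.12 and -0.36, so no direction is read for them. The ratio of Csa6G088710 overlapped either way, without the added 1 at 0.53 and 0.49 in the RNAi libraries against 0.39 and 1.38 in the WT libraries. Csa6G088160 has no such ratio in WT replicate 2, where it had 0 reads. Its ratio without the added 1 was -0.50 and -0.36 in the RNAi libraries, against -1.53 in WT replicate 1. No gene lengths come with the table, so the ratios are compared between libraries and not between genes.

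**Figure D4:**
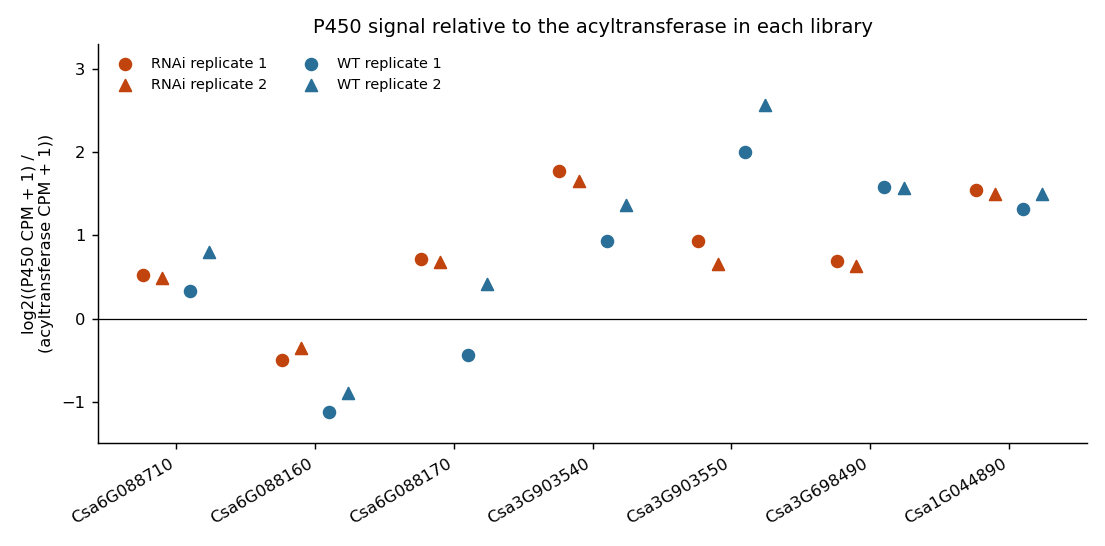
Log2 ratio of each of 7 P450 genes to the acyltransferase Csa6G088700, each as normalised CPM + 1, in each library; red points are RNAi, blue points are WT, circles replicate 1 and triangles replicate 2. Csa3G903550 and Csa3G698490 lie lower in the RNAi libraries, with mean differences of -1.49 and -0.91; the gaps of Csa6G088170, Csa3G903540 and Csa1G044890 are lost without the added 1.

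Most pathway genes had a profile over the 4 libraries close to that of the acyltransferase. Likeness was measured as the Euclidean distance between log2(normalised CPM + 1) profiles, each centred on its own mean, from the acyltransferase to the other 17490 tested genes. Csa1G044890 was the nearest of all at a distance of 0.18, and Csa6G088710 was in place 3 at 0.34. Csa6G088160, Csa3G903540, Csa3G698490 and Csa6G088170 held places 14, 18, 47 and 52. Csa3G903550 was farther, in place 312 at a distance of 1.56, and the median distance of all genes was 5.14. With only 4 libraries in 2 groups, the group difference by construction weighs heavily in this distance, which says nothing of shared function.

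IDs next to the pathway genes were examined as well, although no file says whether the ID numbers run along a chromosome. Of the 32 tested IDs within 100 (10 ID steps) of a listed gene, 16 (50%) rose in RNAi and 6 fell in limma's test, and 10 did not pass it, against 31.0% higher and 29.5% lower over all tested genes. Their median log2 fold change was 0.57, against 0.03 over all tested genes. Several of the IDs called higher, Csa1G044870 among them, passed the filter only with the RNAi libraries, where they were high. An ID called lower passed it only with the WT libraries. The counts, the median and the adjusted p-values of these IDs are therefore a description of the IDs that were tested. IDs with a log2 fold change of at least 4 numbered 3 of the 32, and 2.10% of all tested genes reached that change. All 3 stood within 2 ID steps of the P450 gene Csa1G044890. Csa1G044870 had 113 and 119 normalised CPM in the RNAi libraries, against 3.50 and 0.344 in the WT libraries (log2 fold change 5.58, SE 0.58, adjusted p = 0.00150 in limma's test). Csa1G044900 had 114 and 130 in the RNAi libraries, against 4.81 and 1.49 in the WT libraries (log2 fold change 5.01, SE 0.42, adjusted p = 0.000816 in limma's test). The third of these IDs, which lies between Csa1G044870 and Csa1G044890, changed by 4.71 (SE 0.27, adjusted p = 0.000320 in limma's test). In likeness to the acyltransferase the 3 held places 10, 2 and 28 in the order given. IDs picked for a large increase stand near it largely by construction, so these places are no further result. All 3 were higher in WT replicate 1 than in WT replicate 2, as were 49.6% of all tested genes.

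The single tested neighbour of the acyltransferase and Csa6G088710, whose ID number is 10 above that of Csa6G088710, had 19.7 and 18.1 normalised CPM in the RNAi libraries, against 0.219 and 0.687 in the WT libraries. Its log2 fold change was 3.79 (SE 0.23, adjusted p = 0.000364 in limma's test). This neighbour, too, passed the filter only with the RNAi libraries. Counts around the other pathway genes are small, and with 31.0% higher and 29.5% lower over all tested genes no pattern is read from them. Of the 9 IDs before Csa6G088160, 5 rose, 2 fell and 2 did not pass. Of the 8 IDs near Csa3G698490, 6 were higher and 1 was lower. Near Csa3G903540 and Csa3G903550 1 of 8 was higher and 3 were lower. The neighbours with the largest decreases were Csa3G903470, with 2.46 and 2.26 normalised CPM in the RNAi libraries against 13.5 and 17.4 in the WT libraries, and Csa3G698470, with 6.89 and 6.60 in the RNAi libraries against 35.5 and 28.2 in the WT libraries. Their log2 fold changes were -2.28 and -2.08 in the order given (SE 0.20 and 0.17, adjusted p = 0.000887 and 0.000796 in limma's test). The files give these neighbours no name, and no role is given to them here.

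**Figure D5:**
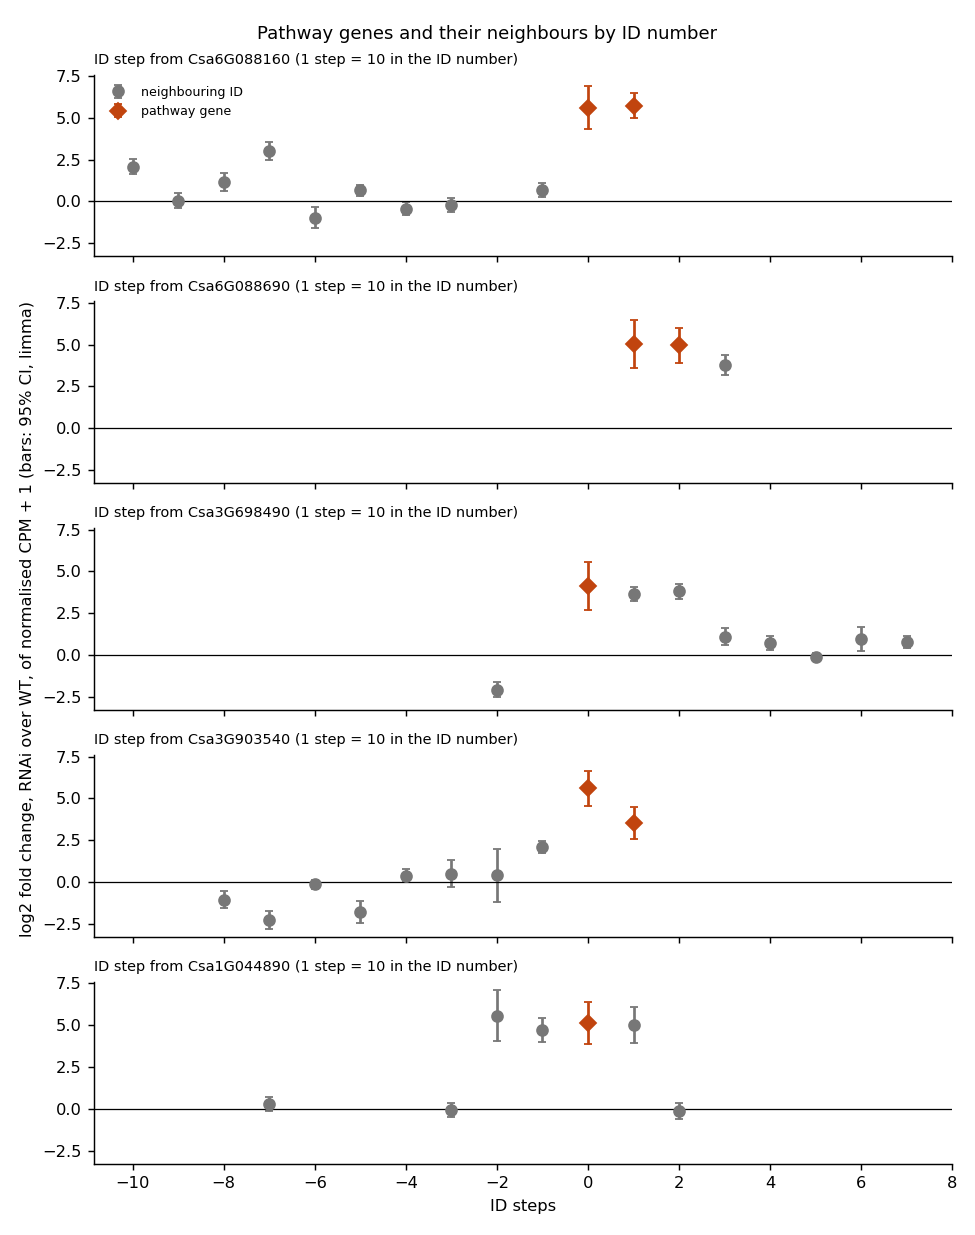
Log2 fold change (RNAi over WT, of normalised CPM + 1) with the 95% confidence interval from limma, plotted by ID step (1 step is 10 in the ID number) around the listed genes; diamonds are pathway genes and grey circles neighbouring IDs. Next to Csa1G044890, 3 neighbours lie at 4.71 to 5.58, beside IDs near 0, and no ID from Csa6G088180 up to Bi has a point.

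Among the pathway genes in the table, 3 pairs have consecutive IDs: Csa6G088160 with Csa6G088170, Csa6G088700 with Csa6G088710, and Csa3G903540 with Csa3G903550. Reads shared by near-identical copies, such as P450 genes in tandem, can be dropped or divided when reads are counted. Whether this touched the pairs made up only of P450 genes was not tested. The pair of Csa6G088700 and Csa6G088710 joins an acyltransferase and a P450 gene.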

How the data were processed

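The authors deposited 1 table with a normalised signal per gene and library, which its name calls CPM. The submitters' processing notes name TopHat (spliced alignment) and HTSeq (counting) with no version; the build, strand setting and low-value filter are not given in the sources consulted. The columns total between 869613 (RNAi replicate 1) and 1209165 (WT replicate 1) and hold whole multiples of 1 step: 100% of the deposited values were whole reads to within 0.01 read. TMM factors from these reads (edgeR) were 1.1499 and 1.1398 for RNAi and 0.827 and 0.923 for WT, and equal those the totals imply. The plan had assumed plain CPM; the test was kept.

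The main test was limma 3.58.1 (R 4.3.3) on log2(normalised CPM + 1), using a trended prior variance and no replicate block, for the 17491 genes that reached 1 normalised CPM in 2 or more libraries, with Benjamini-Hochberg adjustment over all of them. Counting intervals are exact binomial (Clopper-Pearson) 95% intervals on summed reads, with ratios scaled by the TMM-adjusted library sizes; PCR copies are not independent molecules. Alternatives included edgeR 4.0.16 (quasi-likelihood) and DESeq2 1.42.0 on the recovered reads.

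The genes and lists were chosen with earlier results of these data known. All listed genes are named; neighbouring IDs are named by the rule of the largest changes that passed, at most 2 higher and 2 lower. Lists planned on gene names (pathway, tissue markers) were not tested, since 0 IDs matched RefSeq assembly Cucumber_9930_V3.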

Additional observations from a re-analysis of the deposited data

How the results depend on the processing

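The count of 8 higher and 0 lower pathway genes was the same under the other pseudocounts, filters, scalings, limma without trend, edgeR, DESeq2, the replicate block and without either WT library; leaving out 1 library gave 6 to 8 higher genes. Each of the 8 log2 fold changes was positive under all 14 alternatives, which reuse the same reads. For each gene the lowest RNAi value exceeded the highest WT value at least 8.15-fold, so these alternatives could hardly turn the sign. With the replicate block 4900 of all genes were higher and 4724 lower, and all 8 pathway genes were called; no label says that numbers pair libraries, and the replicate differences of RNAi and WT correlated at -0.09 across genes, so they were not taken as pairs. Leaving out 1 library gave 2242 to 6295 higher and 1854 to 6091 lower genes of all, with the lowest counts without RNAi replicate 1 (2242 and 1854) or 2 (2368 and 2055), where the lone RNAi library is assumed to vary like WT. Neighbouring IDs then numbered 10 to 18 higher and 3 to 6 lower. Plain CPM gave 7534 higher and 3477 lower genes of all and moved the median change over all genes to 0.38 log2 units, against 0.03. Under plain CPM the ratio of Csa3G698490 to the acyltransferase differed by -0.87, and the summed signal differed by 5.43 log2 units between the groups' mean logs, against 5.04 with the deposited values. With pseudocounts of 0.1 or none, chosen after seeing the data, the ratio of Csa1G044890 to the acyltransferase turned to -0.29 and -0.36, against 0.12. The comparison with Bi was not run, since Bi had no row. Depth limits Csa6G088160 most, with 38 WT reads.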
